A study of Drosophila melanogaster and Drosophila simulans and Drosophila yakuba with 72 samples.

Results

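The 8 probes for 2S ribosomal RNA (rRNA) on a fly microRNA (miRNA) array were read in all 72 samples of a study of metamorphosis in Drosophila. They were taken by their reporter names, which start with 2Srr, and make up 8 of the 1396 named probes of the array, beside 1339 miRNA probes, 6 probes for 5S rRNA and 43 spike-in control probes. The samples were whole animals, snap frozen and pooled at 60 to 80 per replicate, in 18 groups of 4. The groups cover 2 stages, PF and an earlier stage that the labels mark as at least 18 before PF, with no unit. PF is taken to stand for puparium formation, with which metamorphosis starts. Males of both stages were sampled in the D. melanogaster strains Samarkand, Canton-S, Zimbabwe-109 and Oregon-R, in a D. simulans stock (14021-0251.167) and in a D. yakuba stock (14021-0261.00). Females of both stages were sampled in D. simulans, Zimbabwe-109 and Oregon-R. The labels name no mutation, transgene or drug for any group, and all larvae were reared at 25 °C on cornmeal food with bromophenol blue. Each of the 36 arrays held both stages of a strain, sex and replicate in opposite dyes, with the dyes swapped on 2 of the 4 arrays of each strain and sex.

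2S rRNA is a very short rRNA of flies that is cut from the same precursor as the large rRNAs of the ribosome and sits within the large subunit. Because of its length it runs together with miRNAs and other small RNAs, and it is commonly depleted before small RNAs of flies are sequenced. On a miRNA array it is an abundant RNA of the same size class that is not a miRNA. RefSeq's table for D. melanogaster (Release 6) lists 4 genes for 2S rRNA, each 30 bases long, of which 1 is assigned to X and 3 to both X and Y, and 3 pseudogenes. These chromosomes carry the rRNA gene clusters of flies. No genomic 2S sequence of any of the 3 species was compared with the probes here, and the unchanged probe is taken as such from its name.

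The 8 listed target sequences are shown because they form a ladder of mismatches, and the results turn on how many bases are changed and which. A probe with a changed base pairs less well with the 2S rRNA in the sample, so the ladder shows how far each array kept matched and mismatched pairs apart. All 8 are 24 bases long, are written 5′ to 3′ as the files give them, and carry capitals where a base differs from the first, whose name marks it as the unchanged one.
2Srr-24nt-non: ugcuuggacuacauaugguugagg
2Srr-24nt-4ta: ugcAuggacuacauaugguugagg
2Srr-24nt-12cg: ugcuuggacuaGauaugguugagg
2Srr-24nt-20at: ugcuuggacuacauaugguugUgg
2Srr-24nt-420: ugcAuggacuacauaugguugUgg
2Srr-24nt-412: ugcAuggacuaGauaugguugagg
2Srr-24nt-1220: ugcuuggacuaGauaugguugUgg
2Srr-24nt-3mp: ugcAuggacuaGauaugguugUgg
Counted from 1 at the 5′ end, 3 substitutions occur, U4A, C12G and A22U, alone in 3 probes, in pairs in 3 and all together in 2Srr-24nt-3mp. The names give the last change as 20, whereas in the listed sequences it stands at base 22, which is base 3 from the 3′ end. All 8 sequences hold 11 G or C. No miRNA probe's listed target shared a run of 12 bases with the unchanged 2S sequence. The probes share their target RNA, so they are 8 readings of 1 RNA and not replicates of it.

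Signals below are linear intensities, each the median of a probe's 3 spots less the median of the empty spots in the same channel. Empty spots had medians of 49.1 to 136 in Cy3 and 29.8 to 64.6 in Cy5. A probe counted as above background where it exceeded the empty spots by 3 SD, which 87 to 278 miRNA probes did per sample. The probe der-let-7, for a miRNA known to come on at the onset of metamorphosis, was brighter at PF on 36 of 36 arrays, with medians of 6113 at PF and 58.8 at the earlier stage. The muscle miRNA probe der-miR-1 was above background in 72 of 72 samples, and der-miR-124, for a miRNA of the nervous system, in 13 of 72. On 4 female arrays, replicates 1 and 2 of Oregon-R and 3 and 4 of Zimbabwe-109, the mismatched spike-in control a2-PUC2MM-20B read 2957 to 31277, which was 7.83% to 131% of its matched control. The letters MM and PM in the names of these controls are read as mismatched and matched, and the files list no sequence for them. It read at most 131 on the other 8 female arrays and at most 20.6 on the 24 male arrays. For the dimmed probes, group levels and comparisons between sexes and species are given with and without those 4 arrays, and the part of these arrays in each result was not tested. Biological replication, with 4 samples in each group, is stated by the study's design note.

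The unchanged probe was among the brightest features of the array. Its signal ran from 3817 to 56290 over the 72 samples with a median of 46067, and it was above background in all of them. A median of 0 of the 1339 miRNA probes were brighter than it in the same sample, and 0 were brighter in 47 of 72 samples. In the other samples up to 21 miRNA probes exceeded it. Its signal was 113 times the median signal of the detected miRNA probes in the median sample, with a range of 5.49 to 1190 times. Of the 72 channels, the brightest spot belonged to a 2S probe in 45, to a miRNA probe in 22 and to a spike-in control in 5.

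Together the 8 probes gave a median of 38.0% of the summed signal of the 2S and miRNA probes, with a lowest share of 7.40% and a highest of 64.1%. The 3 brightest miRNA probes by mean level stood below the unchanged 2S probe in most samples. The probe der-miR-1 had a median signal of 22747 and exceeded the unchanged 2S probe in 5 of 72 samples. The probe aae-miR-14, for a miRNA known in flies for roles in fat metabolism and cell survival, had a median of 15888 and exceeded it in 2 samples. The probe der-miR-184, for a miRNA with roles in the female germline of flies, had a median of 10618 and exceeded it in 1 sample.

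Single changes and the pair U4A with A22U left the signal close to that of the unchanged probe. The median signal relative to the unchanged probe in the same sample was 99.0% for 2Srr-24nt-20at, 96.5% for 2Srr-24nt-4ta, 91.6% for 2Srr-24nt-12cg and 91.5% for 2Srr-24nt-420, the last of which carries 2 changes. On the log2 scale, these 4 probes and the unchanged one spanned a median of 0.25 within a sample, from 0.04 to 1.24, and less than 1 in 70 of 72 samples. The probes 2Srr-24nt-420 and 2Srr-24nt-12cg differed by a median of 0.00 on the log2 scale, from -0.13 to 0.18, and 2Srr-24nt-420 was the brighter of this pair in 37 of 72 samples.

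The pairs that hold C12G were dimmer, by different amounts. The probe 2Srr-24nt-412, with U4A and C12G, read a median of 57.2% of the unchanged probe. The probe 2Srr-24nt-1220, with C12G and A22U, read 6.71% of it. With all 3 changes, 2Srr-24nt-3mp read 0.567% of it. Among the 3 probes with 2 changes, 2Srr-24nt-420 exceeded 2Srr-24nt-1220 in 68 of 72 samples, by a median of 3.78 on the log2 scale, and 2Srr-24nt-412 exceeded 2Srr-24nt-1220 in 68 samples, by a median of 3.04. The order 2Srr-24nt-420, 2Srr-24nt-412, 2Srr-24nt-1220, 2Srr-24nt-3mp from bright to dim held in 63 of 72 samples.

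Even the dimmest probe stood above most of the 1339 miRNA probes, of which a median of 176.5 per sample were above background. A median of 3 miRNA probes were brighter than 2Srr-24nt-412, with a range of 0 to 47. A median of 34 were brighter than 2Srr-24nt-1220, with a range of 0 to 150, and a median of 89.5 were brighter than 2Srr-24nt-3mp, with a range of 0 to 640. The probe 2Srr-24nt-1220 was above background in 71 of 72 samples and the 6 brighter ones in 72 of 72. The probe 2Srr-24nt-3mp was above background in 61 of 72, and in each of the 18 groups at least 2 of the 4 samples measured it.

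The bright probes lay near the top of the range the arrays reached, where the highest reading of any spot was 60514 and the brightest spot of a channel read at least 39690. Of the 216 spots of the unchanged probe, 64 (29.6%) read 50000 or more, as did 57 (26.4%) of 2Srr-24nt-20at, 49 (22.7%) of 2Srr-24nt-4ta, 25 (11.6%) of 2Srr-24nt-420 and 24 (11.1%) of 2Srr-24nt-12cg. The dimmer probes had 6 such spots for 2Srr-24nt-412, 2 for 2Srr-24nt-1220 and 0 for 2Srr-24nt-3mp. Over all 8 probes 227 of 1728 spots (13.1%) read 50000 or more, against 95 of 289224 (0.0328%) for the miRNA probes. All 3 spots of the unchanged probe read 50000 or more in 12 of 72 samples, and those of 2Srr-24nt-412, 2Srr-24nt-1220 and 2Srr-24nt-3mp did so in 0. The files do not state the scanner's limit, so differences among the bright probes are readings near an unknown ceiling.

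The 3 spots of a probe agreed within a median coefficient of variation of 3.94% to 5.06% for the 5 bright probes, 6.14% for 2Srr-24nt-412, 10.3% for 2Srr-24nt-1220 and 9.38% for 2Srr-24nt-3mp. The coefficient passed 20% in at most 2 samples for each of the bright probes and for 2Srr-24nt-412, in 9 samples for 2Srr-24nt-1220 and in 6 for 2Srr-24nt-3mp. The gaps between the unchanged probe and these 3 dimmed probes exceeded the spread of their spots in the median of all 72 samples. In females alone 2Srr-24nt-412 read a median of 99.1% of the unchanged probe, so no such gap is shown for it there.

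The drop along the ladder differed with the dye. In the limma fit over all 18 groups, 3 of the 8 probes were called higher in Cy5 than in Cy3, against 8.57% of the 280 probes tested called higher and 26.1% called in either direction. The differences were 1.93 ± 0.18 for 2Srr-24nt-3mp (log2, SE, adjusted p = 1.2e-12), 1.81 ± 0.23 for 2Srr-24nt-1220 (adjusted p = 3.4e-08) and 0.88 ± 0.16 for 2Srr-24nt-412 (adjusted p = 3.7e-05). On 35 of 36 arrays the Cy5 channel had the higher level of 2Srr-24nt-3mp, on 32 that of 2Srr-24nt-1220 and on 30 that of 2Srr-24nt-412. The 5 bright probes had differences of at most 0.25 and were not called. Without the 4 arrays set apart by the spike-in control, 2Srr-24nt-12cg (0.51) and 2Srr-24nt-420 (0.49) were called as well, which made 5 of 8. Leaving out either replicate 3 or replicate 4 of the Zimbabwe-109 females alone also gave 5 calls. The shares of 8.57% and 26.1% are from the fit with all arrays, and those of the fits with arrays left out are not given here. Each group held 2 samples of each dye, and dye was a term of every fit below.

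The values in each strain and sex are given next for the unchanged probe and for the most dimmed ones, as signals above the empty spots, with the 2 samples of each dye named together. In Oregon-R males, the unchanged probe read 44101 and 50206 in Cy5 and 31297 and 47173 in Cy3 at PF, against 45226 and 51499 in Cy5 and 45650 and 48502 in Cy3 at the earlier stage. The probe 2Srr-24nt-1220 read 1071 and 1194 in Cy5 and 92.3 and 591 in Cy3 at PF, against 1498 and 994 in Cy5 and 155 and 391 in Cy3 at the earlier stage. The probe 2Srr-24nt-3mp read 167 and 226 in Cy5 and 24.2 and 94.9 in Cy3 at PF, against 219 and 133 in Cy5 and 19.5 and 102 in Cy3 at the earlier stage. The stages overlapped for all 3 probes, and the Cy3 samples were the low ones for both dimmed probes.

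In Oregon-R females, the unchanged probe read 46265 and 49867 in Cy5 and 48244 and 53382 in Cy3 at PF, against 31334 and 47194 in Cy5 and 42924 and 40550 in Cy3 at the earlier stage. Its partner 2Srr-24nt-1220 read 52256 and 12346 in Cy5 and 36385 and 13149 in Cy3 at PF, against 31672 and 6732 in Cy5 and 32511 and 4160 in Cy3 at the earlier stage. With 3 changes, 2Srr-24nt-3mp read 14940 and 1661 in Cy5 and 5300 and 2898 in Cy3 at PF, against 8102 and 907 in Cy5 and 3814 and 228 in Cy3 at the earlier stage. The first value of each pair comes from replicates 1 and 2, which are 2 of the 4 arrays set apart, and these values were the highest of both dimmed probes at each stage.

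In Zimbabwe-109 males, the unchanged probe read 51118 and 43902 in Cy5 and 56290 and 44861 in Cy3 at PF, against 23933 and 11668 in Cy5 and 28637 and 31072 in Cy3 at the earlier stage. For 2Srr-24nt-1220 the signals were 11915 and 1524 in Cy5 and 261 and 3050 in Cy3 at PF, against 2012 and 1810 in Cy5 and 2324 and 166 in Cy3 at the earlier stage. For 2Srr-24nt-3mp they were 356 and 230 in Cy5 and 25.9 and 417 in Cy3 at PF, against 218 and 143 in Cy5 and 42.7 and 13.7 in Cy3 at the earlier stage. The stages did not overlap for the unchanged probe, which was brighter in all 4 PF samples, and they overlapped for both dimmed probes.

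In Zimbabwe-109 females, the unchanged probe read 50341 and 13451 in Cy5 and 43459 and 34590 in Cy3 at PF, against 20873 and 3817 in Cy5 and 29221 and 43599 in Cy3 at the earlier stage. Signals of 2Srr-24nt-1220 were 15265 and 25575 in Cy5 and 12660 and 25564 in Cy3 at PF, against 11831 and 8747 in Cy5 and 4546 and 40686 in Cy3 at the earlier stage. Signals of 2Srr-24nt-3mp were 1583 and 29392 in Cy5 and 1385 and 6039 in Cy3 at PF, against 1048 and 6135 in Cy5 and 167 and 4809 in Cy3 at the earlier stage. The second value of each pair comes from replicates 3 and 4, the other 2 arrays set apart. On them the unchanged probe had its lowest readings of this strain and sex in Cy5, 13451 and 3817, and 2Srr-24nt-3mp was brighter than the unchanged probe in those same samples.

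In D. simulans males, the unchanged probe read 47765 and 53844 in Cy5 and 51674 and 55922 in Cy3 at PF, against 36842 and 45349 in Cy5 and 43701 and 54625 in Cy3 at the earlier stage. There 2Srr-24nt-1220 read 1036 and 1904 in Cy5 and 362 and 1109 in Cy3 at PF, against 1011 and 3454 in Cy5 and 359 and 187 in Cy3 at the earlier stage. There 2Srr-24nt-3mp read 235 and 324 in Cy5 and 72.5 and 135 in Cy3 at PF, against 200 and 471 in Cy5 and 102 and 35.2 in Cy3 at the earlier stage. All 3 probes overlapped between the stages.

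In D. simulans females, the unchanged probe read 35941 and 44222 in Cy5 and 43061 and 37318 in Cy3 at PF, against 25590 and 35703 in Cy5 and 47074 and 44098 in Cy3 at the earlier stage. Readings of 2Srr-24nt-1220 were 4844 and 8800 in Cy5 and 1334 and 2256 in Cy3 at PF, against 7509 and 6760 in Cy5 and 639 and 2875 in Cy3 at the earlier stage. Readings of 2Srr-24nt-3mp were 1508 and 1185 in Cy5 and 248 and 279 in Cy3 at PF, against 1247 and 973 in Cy5 and 123 and 318 in Cy3 at the earlier stage. The stages overlapped for all 3, and both dimmed probes split by dye with no overlap.

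In D. yakuba males, the unchanged probe read 50832 and 49265 in Cy5 and 48351 and 55416 in Cy3 at PF, against 41832 and 45869 in Cy5 and 47600 and 51397 in Cy3 at the earlier stage. In these animals 2Srr-24nt-1220 read 18260 and 6613 in Cy5 and 2105 and 3669 in Cy3 at PF, against 7647 and 7813 in Cy5 and 13069 and 1082 in Cy3 at the earlier stage. Likewise 2Srr-24nt-3mp read 604 and 602 in Cy5 and 65.2 and 83.3 in Cy3 at PF, against 312 and 211 in Cy5 and 86.6 and 42.9 in Cy3 at the earlier stage. The stages overlapped for all 3, and 18260 was the highest reading of 2Srr-24nt-1220 in any male sample.

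In Canton-S males, the unchanged probe read 54573 and 52322 in Cy5 and 51178 and 50877 in Cy3 at PF, against 47841 and 54613 in Cy5 and 34478 and 30328 in Cy3 at the earlier stage. Here 2Srr-24nt-1220 read 8096 and 621 in Cy5 and 5884 and 491 in Cy3 at PF, against 9007 and 747 in Cy5 and 1278 and 98.5 in Cy3 at the earlier stage. Here 2Srr-24nt-3mp read 501 and 111 in Cy5 and 213 and 91.6 in Cy3 at PF, against 444 and 144 in Cy5 and 43.9 and 17.1 in Cy3 at the earlier stage. The stages overlapped for all 3 probes. The 2 samples of one dye and stage differed by up to a factor of 13 for 2Srr-24nt-1220, while the unchanged probe differed between them by at most 1.14.

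In Samarkand males, the unchanged probe read 47995 and 50439 in Cy5 and 52900 and 51383 in Cy3 at PF, against 34404 and 48960 in Cy5 and 37170 and 49598 in Cy3 at the earlier stage. The signal of 2Srr-24nt-1220 was 3908 and 9329 in Cy5 and 1424 and 2607 in Cy3 at PF, against 1462 and 2069 in Cy5 and 736 and 1889 in Cy3 at the earlier stage. The signal of 2Srr-24nt-3mp was 265 and 977 in Cy5 and 60.9 and 322 in Cy3 at PF, against 99.7 and 384 in Cy5 and 30.3 and 71.6 in Cy3 at the earlier stage. The stages overlapped for all 3 probes, and 977 was the highest reading of 2Srr-24nt-3mp in any male sample.

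For comparisons between samples the intensities were normalized, and levels below are log2 values with the SD over 4 samples. The unchanged probe had its highest mean level in Zimbabwe-109 males at PF, 15.82 ± 0.32, and its lowest in Zimbabwe-109 females at the earlier stage, 14.49 ± 1.59. The other 4 bright probes also had their highest mean in Zimbabwe-109 males at PF, between 15.68 and 15.87, and ranged over 1.00 to 1.28 between groups. The groups differed more for the dimmed probes. The highest mean of 2Srr-24nt-412 was 15.27 ± 0.89 in Zimbabwe-109 females at PF and its lowest 13.23 ± 1.80 in Oregon-R males at PF. The highest mean of 2Srr-24nt-1220 was 14.41 ± 1.21 in Zimbabwe-109 females at PF and its lowest 9.68 ± 1.82 in Oregon-R males at the earlier stage. The highest mean of 2Srr-24nt-3mp was 11.74 ± 2.24 in Zimbabwe-109 females at PF and its lowest 7.45 ± 1.22 in D. yakuba males at the earlier stage. All 6 female groups were the top 6 of 18 for 2Srr-24nt-3mp, whereas 4 of them were in the top 6 for 2Srr-24nt-412 and for 2Srr-24nt-1220, and 1 or 2 for each bright probe. Without the 4 arrays set apart, which leaves 2 samples in each Oregon-R and Zimbabwe-109 female group, 5 female groups were in the top 6 for 2Srr-24nt-3mp, 4 for 2Srr-24nt-412 and 3 for 2Srr-24nt-1220. The highest mean was then 10.42 ± 0.16 for 2Srr-24nt-3mp and 15.12 ± 0.38 for 2Srr-24nt-412, both in Oregon-R females at PF, and 13.49 ± 0.22 for 2Srr-24nt-1220 in Zimbabwe-109 females at PF (SD, n = 2). The unchanged probe then had its highest mean in Oregon-R females at PF (15.89) and its lowest in Zimbabwe-109 males at the earlier stage (14.78). With all arrays, for each of the 8 probes, 0 of the 17 steps between neighbouring groups in the order of levels exceeded the larger SD of the neighbours.

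Read in every sample, the ladder was flatter in females by its medians. Males and females lay on different slides, so slide and sex cannot be told apart here. The median of 2Srr-24nt-412 relative to the unchanged probe was 42.5% in males and 99.1% in females. For 2Srr-24nt-1220 it was 3.50% in males and 26.9% in females, and for 2Srr-24nt-3mp 0.277% in males and 3.74% in females. On the 8 female arrays that were not set apart, the medians were 80.7% for 2Srr-24nt-412, 17.2% for 2Srr-24nt-1220 and 2.70% for 2Srr-24nt-3mp, and on the 4 set apart they were 108%, 97.2% and 21.7%. The probe 2Srr-24nt-412 exceeded the unchanged one in 12 of 72 samples, of which 11 were female and 1 male. It did so in 8 of the 12 female Cy5 samples, where its median was 107% of the unchanged probe. In the 12 female Cy3 samples it did so in 3, with a median of 72.3%. The unchanged probe was exceeded by 2Srr-24nt-1220 in 4 samples and by 2Srr-24nt-3mp in 2, all of these female and in Cy5. All 4 samples of 2Srr-24nt-1220, both of 2Srr-24nt-3mp and 6 of the 12 of 2Srr-24nt-412 were on the 4 arrays set apart, and of the other 6 samples of 2Srr-24nt-412, 5 were female.

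Males were compared with females over D. simulans, Zimbabwe-109 and Oregon-R, which were sampled in both sexes. At PF 3 of the 8 probes fell in males, against 29.6% of the 280 probes tested called lower and 50.4% called in either direction, with differences of -2.85 ± 0.53 for 2Srr-24nt-1220 (log2, SE, limma adjusted p = 1.0e-05), -2.74 ± 0.41 for 2Srr-24nt-3mp (adjusted p = 1.1e-07) and -1.01 ± 0.37 for 2Srr-24nt-412 (adjusted p = 0.019). At the earlier stage the same 3 probes were called lower, against 24.3% of the probes tested called lower and 41.1% in either direction, with differences of -2.60 ± 0.53 for 2Srr-24nt-1220 (adjusted p = 9.9e-05), -1.92 ± 0.41 for 2Srr-24nt-3mp (adjusted p = 0.00015) and -0.88 ± 0.37 for 2Srr-24nt-412 (adjusted p = 0.049). The last call was lost in 24 of the 36 fits that left out 1 array. The 5 bright probes differed between the sexes by 0.01 to 0.37 at PF and by -0.03 to 0.31 at the earlier stage, with SEs of 0.32 to 0.36, and 0 of 5 were called at either stage by limma at an adjusted or unadjusted p under 0.05.

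The mean level of 2Srr-24nt-3mp was lower in males in each of the 3 strains. At PF its level averaged 7.79 ± 1.30 in Oregon-R males and 11.37 ± 1.20 in Oregon-R females, 8.43 ± 1.34 in Zimbabwe-109 males and 11.74 ± 2.24 in Zimbabwe-109 females, and 7.97 ± 1.41 in D. simulans males and 9.31 ± 1.21 in D. simulans females (SD, n = 4 each). The sexes did not overlap in Oregon-R and Zimbabwe-109 and overlapped in D. simulans. At the earlier stage the sexes overlapped in all 3 strains for 2Srr-24nt-3mp, 2Srr-24nt-1220 and 2Srr-24nt-412. Without the 4 arrays set apart, all of them female, 2Srr-24nt-1220 (-2.36, adjusted p = 0.00019), 2Srr-24nt-3mp (-1.83, adjusted p = 8.1e-06) and 2Srr-24nt-412 (-0.96, adjusted p = 0.011) were still called at PF, whereas at the earlier stage 2Srr-24nt-1220 was called (-1.82, adjusted p = 0.0048) and 2Srr-24nt-3mp (-0.73, adjusted p = 0.080) and 2Srr-24nt-412 (-0.63, adjusted p = 0.11) were not. Spike-in controls named MM, which are not for fly RNAs, were unevenly brighter on female arrays. The median signal of a2-PUC2MM-20B was 5.48 on the 24 male arrays, 37.2 on the 8 female arrays not set apart and 12305 on the 4 set apart. For a3-PUC2MM-20B these medians were 4.57, 29.96 and 8140, and for a-PUC2MM2d 7.37, 72.3 and 12977. For PUC2MM-20B they were 4.64, 5.52 and 99.9, with little difference outside the 4 arrays, and for PUC2MM 9936, 17609 and 22358. Their part in the difference between the sexes was not tested. The arrays lay on 7 slides, as read from the file names, with males on 5, females on 2 and both sexes on 0, so slide and sex cannot be told apart. Those names also carry a tag on all male arrays that is absent on all female arrays. What the tag stands for is not stated, and it cannot be told apart from sex either. With slide as the random block, 2 of the 6 calls remained, those of 2Srr-24nt-1220 and 2Srr-24nt-3mp at PF.

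Between the stages no 2S probe passed the test over all strains and sexes, and each of the 8 had a positive mean difference. Averaged over the 9 combinations of strain and sex, PF minus the earlier stage ran from 0.24 to 0.30 on the log2 scale, with limma adjusted p from 0.080 to 0.32. In this contrast 0 of 8 probes were called at an adjusted p, and 0 at an unadjusted p under 0.05, against 78.2% of the 280 probes tested. The median over the 8 was 0.26, beside 0.14 over all probes tested. The unchanged probe stood at 0.25 ± 0.14 and was higher at PF on 24 of 36 arrays. The 5 bright probes moved in one direction on 33 arrays, PF being higher on 22 and lower on 11, and all 8 probes did so on 21.

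That count of 0 depended on single arrays and on settings. It was 6 without replicate 3 of the Zimbabwe-109 females, 3 without replicate 4 of the Canton-S males or without replicate 4 of the Samarkand males, 2 without replicate 2 of the Canton-S males or replicate 3 of the D. simulans females, and 1 without replicate 3 of the Oregon-R males or replicate 1 of the D. simulans females. Without the 4 arrays set apart, 7 of 8 probes were called, with differences of 0.29 to 0.39 and 2Srr-24nt-1220 the exception (0.35, limma adjusted p = 0.15). With all arrays 78.2% of the probes tested were called in this contrast. The shares in the fits with arrays left out are not given here. The calls gained in them are therefore not read as a stage change particular to 2S. In whole animals, fewer cells of a type and less RNA per cell cannot be told apart.

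Within single strains and sexes, 4 of 72 tests on the 8 probes were called. In Zimbabwe-109 males 3 probes rose at PF, against 40.4% of the probes tested called higher and 56.4% in either direction: 2Srr-24nt-4ta by 1.14 ± 0.44 (adjusted p = 0.025), 2Srr-24nt-20at by 1.11 ± 0.43 (adjusted p = 0.027) and the unchanged probe by 1.04 ± 0.43 (adjusted p = 0.033). All 3 were higher at PF on 4 of 4 arrays. All 3 calls were lost when spots at 50000 or more were left out. Under other settings given at the end, they were also lost in the authors' processed table and with a background offset of 16. Using no filter on dim probes, or the array as a fixed replicate block, lost them too. The other 2 bright probes had differences of 1.03 (2Srr-24nt-12cg, adjusted p = 0.060) and 1.00 (2Srr-24nt-420, adjusted p = 0.055) there. In Oregon-R females 2Srr-24nt-3mp rose by 1.35 ± 0.54 (adjusted p = 0.026), against 40.7% of the probes tested called higher and 65.4% in either direction. This call was lost in 7 of 15 alternative settings.

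Of the other combinations, 0 of 8 probes were called in each, and 0 had an unadjusted p under 0.05. The share of all probes called there was 31.1% in Oregon-R males, 45.4% in Canton-S males, 40.7% in Samarkand males, 60.7% in Zimbabwe-109 females, 42.9% in D. simulans males, 36.4% in D. simulans females and 42.9% in D. yakuba males. The count of 4 was 1 without replicate 1 or replicate 4 of the Zimbabwe-109 males and 12 without replicate 3 of the Zimbabwe-109 females, and it was 11 without the 4 arrays set apart. The shares above are from the fit with all arrays, and those of the fits with arrays left out are not given here. The moderated F test of whether the stage change differed among the 9 combinations called 0 of 8 probes (lowest adjusted p = 0.42; 0 at an unadjusted p under 0.05), against 46.1% of the probes tested.

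No bright probe passed the test in a comparison of species or strains. In males, D. simulans minus the mean of the 4 D. melanogaster strains gave 0 calls of 8 at PF, where 10.7% of the probes tested were called, and 0 at the earlier stage, where 7.50% were. For the unchanged probe the differences were -0.15 ± 0.44 at PF and 0.18 ± 0.44 at the earlier stage. D. yakuba minus the same mean also gave 0 calls of 8 at PF and 0 at the earlier stage, against 39.6% and 28.2% of the probes tested. In these 4 contrasts 0 of 8 probes had an unadjusted p under 0.05. The F test among the 4 D. melanogaster strains in males called 0 of 8 at PF and 0 at the earlier stage, against 35.4% and 36.1%.

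In females, D. simulans minus the mean of Oregon-R and Zimbabwe-109 gave 2 calls at PF, both lower, against 18.2% of the probes tested called lower and 35% in either direction, and 0 at the earlier stage, against 38.2%. At PF 2Srr-24nt-1220 (-2.70 ± 0.79, adjusted p = 0.0076) and 2Srr-24nt-3mp (-2.25 ± 0.61, adjusted p = 0.0041) fell in D. simulans. At the earlier stage 2Srr-24nt-1220 differed by -1.88 (adjusted p = 0.053). Both calls were lost without the 4 arrays set apart, all of which are D. melanogaster arrays: the differences were then -1.97 (adjusted p = 0.068) and -0.87 (adjusted p = 0.24). Leaving out replicate 1 of the Zimbabwe-109 females gave 4 calls over the 6 species contrasts. All 4 arrays of D. simulans females lay on 1 slide, whose 2 other arrays are Zimbabwe-109 replicates 3 and 4. On that slide D. simulans females (n = 4) averaged 11.44 and Zimbabwe-109 females (n = 2) 15.33 for 2Srr-24nt-1220 at PF, and 9.31 and 13.54 for 2Srr-24nt-3mp. Both of these Zimbabwe-109 samples are on arrays set apart. The Zimbabwe-109 females at PF on the other arrays (n = 2), which lay on another slide, averaged 13.49 and 9.94 for these probes.

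Set against the miRNA probes of the same channel, which needs no normalization between channels, the summed 2S signal was larger at PF. The log2 ratio of the summed signals of the 8 probes and of the 1339 miRNA probes was higher at PF on 26 of 36 arrays, by a mean of 0.61 ± 0.93 (SD, n = 36 arrays, two-sided permutation test by sign flips, p = 0.00031). Without the 4 arrays set apart the mean was 0.58 and PF was higher on 23 of 32 arrays (the same permutation test, p = 0.00095). It was 0.94 on the 18 arrays with PF in Cy5, higher on 15 of them, and 0.27 on the 18 with PF in Cy3, higher on 11. Of the 7 slides, 7 had a positive mean, from 0.13 to 1.51. The 2 sums differ in how near they lie to the ceiling. Of the 2S spots 13.1% read 50000 or more, against 0.0328% of the miRNA spots. With such spots left out, the mean was 0.53 and PF was higher on 23 of 36 arrays (the same permutation test, p = 0.0021). The part of the ceiling in this ratio was not tested.

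The mean difference of the ratio was highest in Zimbabwe-109 males, with mean log2 ratios of 0.03 ± 0.64 at PF and -1.48 ± 0.27 at the earlier stage (SD, n = 4 each), PF being higher on 4 of 4 arrays. It was higher at PF on 4 of 4 arrays also in Oregon-R females, by 0.65 ± 0.55, and in D. yakuba males, by 0.54 ± 0.55. In Oregon-R males the mean difference was -0.02 ± 1.19, with PF higher on 2 of 4 arrays. In the other combinations the means ran from 0.13 in D. simulans females to 1.06 in Zimbabwe-109 females. With 4 arrays the smallest p that sign flips allow is 0.125, so no test was made within a combination. As shares of the summed 2S and miRNA signal, the 8 probes made up a median of 41.5% at PF and 31.3% at the earlier stage.

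The other rRNA on the array, 5S, was read by 6 probes. Their median signals at PF ran from 1139 for dme-5S-b3 to 14229 for dme-5S-b5. The probe dme-5S-b1 was higher at PF on 33 of 36 arrays, with medians of 14133 at PF and 3319 at the earlier stage, and dme-5S-b4 on 21, with medians of 3519 at PF and 2963 at the earlier stage. Of 1728 readings of 5S spots 0 were at 50000 or more. The 2 brightest spike-in controls, a2-PUC2PM-20B and a3-PUC2PM-20B, had medians of 31016 and 30537, and 6 of the 43 spike-in probes were above background in all 72 samples and 21 in none.

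Across the 18 group means, the tested miRNA probes most like the mean of the 8 2S probes were aae-miR-2a* (Pearson r = 0.88), dme-miR-1010 (r = 0.85) and dpu-miR-100 (r = 0.85). Their median signals above the empty spots were 1.79, 11.9 and 8.88, so all 3 were dim in most samples. The median correlation over the 272 probes was 0.04. The points share arrays and dyes, and the mean of the 8 probes varies mostly through the dimmed ones.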

How the data were processed

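The members and lists were chosen with earlier results of these data known. Total RNA of whole animals was labelled and hybridized by a service company, per the labels. The scanner files as deposited hold, per the file headers, a linear intensity for each of 5022 spots, the median pixel density, with sample and dye named per channel; the sources used here name neither scanner nor software. The authors' deposited processed table, also a linear intensity, leaves out the 689 empty spots, and its scaling is not stated; it served as an alternative, as log2(value + 1). Each column's rank correlation with its own channel was 0.805 or more.

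Background was corrected by normexp (limma, offset 50) with the empty-spot median as background, and values were normalized by loess within arrays (2S and control spots at weight 0) and by Aquantile between arrays, and the median of 3 spots was taken on the log2 scale. Probes above background in at least 3 samples of a group were tested: 272 miRNA and 8 2S probes. The fit (R 4.3.3, limma 3.58.1, statmod 1.5.0) covered all 18 groups, with dye as covariate and array as random block (correlation 0.41), and Benjamini-Hochberg adjustment at 0.05 over the 280 probes of each contrast. On each array the 2 samples share the replicate number, so the numbers pair the samples; the correlation of their deviations from the group means ran from -0.40 to 0.59 and passed 0.1 on 22 of 36 arrays. The stage contrast over all strains and sexes was tested on simulated data with no ceiling, and the other contrasts were not. Permutations (100000) used Python 3.11.15 and scipy 1.17.1. Named were all 8 probes, the 3 brightest and the 3 most similar miRNA probes, the controls and the label checks. The number of arrays limits the precision, and each p-value weighs a difference against the spread between these samples.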

Additional observations from a re-analysis of the deposited data

Results flagged for a closer look

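Among 144 combinations of probe and group, 12 held a sample whose level lay far from the other 3, against 7.20 that chance would give at about 1 in 20; the 8 probes share their target RNA, so their values move together. On replicate 4 of the Samarkand males the PF sample was low for the unchanged probe (14.15, the others at 15.44 to 15.67), 2Srr-24nt-4ta (14.10), 2Srr-24nt-12cg (14.05) and 2Srr-24nt-420 (13.99). The earlier sample on the same array was high for the unchanged probe (16.62, the others at 14.99 to 15.23), 2Srr-24nt-20at (16.42) and 2Srr-24nt-420 (16.18). The PF sample of replicate 3 of the Zimbabwe-109 females, 1 of the 4 arrays set apart by the spike-in control, was low for the unchanged probe (13.55, the others at 15.11 to 15.37), 2Srr-24nt-12cg (13.82), 2Srr-24nt-20at (13.91) and 2Srr-24nt-420 (13.95). In D. simulans females at the earlier stage, replicate 1 was low for 2Srr-24nt-412 (14.12, the others at 14.79 to 14.89). All these values are normalized log2 levels, and no cause was tested.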

How the results depend on the processing

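The ratio of 2S to miRNA signal stayed above 0 and past the threshold under every alternative run, from 0.53 with spots at 50000 or more left out to 0.98 in the authors' processed table, with 0.61 (p = 0.00022) for the unpaired test with no replicate block and 0.54 to 0.65 without single arrays. Counts of calls among the 8 probes depended more on the processing. They are given without the share of all probes called under each setting, so they show only how stable the calls were. Over all strains and sexes, the stage contrast, with 0 calls as reported, had 6 with plain background subtraction, 7 with median centring, 3 with the 2S spots at full weight in the loess, 6 with quantile normalization, 1 with no normalization between arrays, 1 in the authors' table, 1 with the array as a fixed replicate block, 7 without the 4 arrays set apart (chosen after seeing the data) and 0 to 6 without single arrays. Within single strains and sexes the 4 calls became 1 with an offset of 16, 8 with median centring, 14 with quantile normalization, 0 in the authors' table, 0 with no filter on dim probes, 2 with no replicate block, 2 with the array as a fixed replicate block, 11 without the 4 arrays and 1 to 12 without single arrays. The F test among the 9 combinations had 1 call with spots at 50000 or more left out and 1 with the array as a fixed replicate block, and 0 without any single array. The 2 species calls were both lower. They became 5 with no normalization between arrays, 4 in the authors' table and 6 with slide as the random block. In each of these counts 2 calls were higher. The count was 0 with no dye covariate, 0 without the 4 arrays and 2 to 4 without single arrays. The F tests among strains had 1 call each with median centring, with quantile normalization and without the 4 arrays, and 0 without any single array. The 6 calls between the sexes became 2 with slide as the random block and were 5 to 6 without single arrays. The 3 calls for the dye, all higher in Cy5, became 6 with quantile normalization and 6 in the authors' table. Each of these counts held 3 higher and 3 lower calls. The count was 5 without the 4 arrays, all higher, and 3 to 5 without single arrays. The mean stage difference of 2Srr-24nt-1220 changed sign in the authors' table, to -0.11. The replicate block changed no other count by over 1.5 times. The 2S spots that read at or above a chosen threshold were 723 at 40000 and 2 at 60000, against 227 at 50000. The causes of these changes were not tested. In the fit without spots at 50000 or more, a spot was dropped when either channel passed the limit, and the unchanged probe then had no value in 22 samples.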
